A study of Mus musculus with 4 samples.

Results

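Transcripts of the nuclear-encoded genes of the mitochondrial respiratory chain and ATP synthase were measured in single brain nuclei. The members were all gene rows whose symbol began with Sdh, Uqcr, Cox4 to Cox8 or Atp5, or with Nduf, the letter a, b, c, s or v and a number. Nduf symbols of another form, such as the complex I subunit Ndufab1, were not included. The rule found 88 rows of 31053, with 87 symbols, because Atp5o has 2 rows. By role, 35 rows encoded complex I subunits, 4 complex II, 8 complex III, 19 complex IV (with Ndufa4 and Ndufa4l2) and 16 ATP synthase (complex V), and 6 encoded assembly or coupling factors (Sdhaf1, Sdhaf2, Sdhaf3, Sdhaf4, Atp5s and Cox7a2l). The samples were brains of 2-month-old female C57/BL6 mice, either wild type (WT1 and WT2) or heterozygous for a germline loss of the CSF-1 receptor gene (Csf1r+/-, HET1 and HET2). The heterozygotes were asymptomatic at this age and kept 1 intact Csf1r allele in every cell. Mice were perfused and not treated, nuclei were prepared without detergent, myelin debris was depleted with beads, and each library was 1 brain. Values for the 4 libraries are given in the order WT1, WT2, HET1, HET2.

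The respiratory chain passes electrons from NADH through complex I, or from succinate through complex II, to complex III, cytochrome c and complex IV, where oxygen is reduced. The proton gradient that complexes I, III and IV build drives ATP synthase. Complexes I, III, IV and V include products of the mitochondrial genome (the mt- genes), complex II is wholly nuclear-encoded, and the nuclear genes are transcribed in the nucleus and translated in the cytosol. Some complex IV subunits have a ubiquitous and a tissue-restricted isoform. In brain tissue, neurons are the main consumers of oxygen, and capillary endothelial cells are known for a high content of mitochondria.

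Promoters are shown for Cox8a, Cox6a1, Cox7b and Cox7b2, complex IV genes of the isoform and genotype results below, and not for Ndufa4, though the reference held its entry. They are RefSeq sequences on GRCm38.p6, each from 250 bases before to 50 bases after the transcription start, printed 5′ to 3′ on the gene's own strand. Capitals mark matches, on either strand, to the motifs named below. Cox8a encodes the ubiquitous form of subunit 8, and its promoter lies at chr19:7217567-7217866 (minus strand). Cox6a1 encodes the ubiquitous form of subunit 6A, at chr5:115348909-115349208 (minus strand). Cox7b, at chrX:106015450-106015749 (plus strand), and Cox7b2, at chr5:71548156-71548455 (minus strand), form an isoform pair.
Cox8a: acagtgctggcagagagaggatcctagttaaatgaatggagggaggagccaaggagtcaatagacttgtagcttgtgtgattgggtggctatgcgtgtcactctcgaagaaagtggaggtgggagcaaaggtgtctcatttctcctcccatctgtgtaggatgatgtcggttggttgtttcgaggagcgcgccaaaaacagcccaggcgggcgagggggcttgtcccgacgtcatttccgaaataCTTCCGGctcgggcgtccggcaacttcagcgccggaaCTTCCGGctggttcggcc
Cox6a1: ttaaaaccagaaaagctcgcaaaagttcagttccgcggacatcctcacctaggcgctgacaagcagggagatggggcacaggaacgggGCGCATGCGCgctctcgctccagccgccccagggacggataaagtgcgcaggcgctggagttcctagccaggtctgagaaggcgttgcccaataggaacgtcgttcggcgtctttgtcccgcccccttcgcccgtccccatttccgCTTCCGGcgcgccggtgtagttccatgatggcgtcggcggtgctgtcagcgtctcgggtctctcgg
Cox7b: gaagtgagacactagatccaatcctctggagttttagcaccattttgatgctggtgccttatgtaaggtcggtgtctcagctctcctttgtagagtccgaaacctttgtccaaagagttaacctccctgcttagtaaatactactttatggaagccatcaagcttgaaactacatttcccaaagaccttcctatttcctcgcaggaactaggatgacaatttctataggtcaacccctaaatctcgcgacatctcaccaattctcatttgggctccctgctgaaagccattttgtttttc
Cox7b2: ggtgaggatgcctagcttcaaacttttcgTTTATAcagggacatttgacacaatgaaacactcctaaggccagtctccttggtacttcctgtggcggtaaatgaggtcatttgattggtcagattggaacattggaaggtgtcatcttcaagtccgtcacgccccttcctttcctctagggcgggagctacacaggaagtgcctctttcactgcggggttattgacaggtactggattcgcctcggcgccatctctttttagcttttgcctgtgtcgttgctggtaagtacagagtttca
The Cox8a promoter held the GABPA motif at 2 places, and the Cox6a1 promoter held both the NRF1 and the GABPA motif. The Cox7b promoter held none of the 5 motifs searched, and the Cox7b2 promoter held a TATA box alone. The Ndufa4 promoter, not printed, held none of the 5 either.

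The motifs were those of NRF1 and GABPA (the palindrome in capitals in the Cox6a1 promoter, and CCGGAAG), activators of genes for mitochondrial proteins, of YY1 (AAGATGGCG), of the hypoxia response element (ACGTG) and the TATA box (TATAAA), each searched on both strands. Of the 88 member rows, 73 matched an entry, with 77 promoters of 72 genes. The GABPA motif was in 19 of the 77 member promoters (24.7%), against 8.86% of all 32851 promoters. The NRF1 motif was in 5 (6.49%, against 0.971%) and YY1 in 7 (9.09%, against 1.40%). The hypoxia response element was in 20 (26.0%, against 19.6%) and the TATA box in 9 (11.7%, against 13.6%). The median number of CpG dinucleotides was 19 in the member promoters and 7 in all. A match is a description of the letters, not of a bound site.

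After a filter of 500 to 50000 unique molecular identifiers (UMIs, counted RNA molecules), over 200 genes and under 5% mt- UMIs, 52132 nuclei remained, from 9589 to 16114 per library, with 88097109 to 111488169 UMIs per library. Marker genes assigned 27633 nuclei to an excitatory neuron class, 6483 to inhibitory neurons, 1923 to oligodendrocytes, 706 to microglia and 426 to endothelial cells, and 14669 (28.1%) to none. Nuclei of no class were 30.4, 34.6, 21.9 and 21.4% of the kept nuclei, a smaller part in both HET libraries. Median UMIs per kept nucleus were 5490, 4636, 7454 and 6656, higher in both HET libraries. The part of these differences in the genotype values was not tested. Class names stand for those marker sets. Markers kept out of the assignment were highest in their own class for 5 of 5 microglia, 4 of 4 endothelial, 3 of 4 oligodendrocyte (not Mal) and 2 of 3 excitatory markers (not Slc30a3). In microglia nuclei, Csf1r was at 798, 642, 506 and 560 CPM (counts per 1000000 UMIs of the class and library), so that both HET libraries lay below both WT libraries, while over all nuclei it was at 3.04, 6.53, 6.68 and 6.36 CPM, with WT1 lowest. Library pairs shared 33 to 68 cell barcodes, at most 0.465% of the smaller library. WT2 stood apart: it held 0.799% mt- UMIs before the filter, against 0.188 to 0.336% in the other libraries, and its members and ribosomal protein genes were high too. The genotype median of the members in each class is therefore also given without it, or as a range over left-out libraries. Other genotype values rest on all 4 libraries unless stated. A two-sided exact permutation test of 2 libraries against 2 cannot reach 0.05, so summed values are given with the spread of the libraries and no p. In summed nuclei, fewer molecules per nucleus and fewer nuclei that express a gene cannot be told apart.

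Members took a small share of all UMIs, and among the 5 classes compared the share was largest in endothelial nuclei. It was 0.996, 0.908, 1.27 and 1.14% of endothelial UMIs, against 0.148, 0.218, 0.155 and 0.152% in excitatory nuclei. Inhibitory nuclei had 0.226, 0.315, 0.251 and 0.230%, so that in every library they lay above the excitatory nuclei of the same library. Oligodendrocyte nuclei had 0.196, 0.308, 0.178 and 0.158%, and microglia nuclei 0.299, 0.376, 0.272 and 0.245%. The order of the means over 4 libraries was endothelial (1.08 ± 0.158%, SD, n = 4), microglia (0.298 ± 0.0563%), inhibitory (0.255 ± 0.0411%), oligodendrocyte (0.210 ± 0.0669%) and excitatory (0.168 ± 0.0331%). Among these 5 classes, between neighbours from microglia down to excitatory the means lay within the summed SDs, and only endothelial nuclei lay apart by that measure. The SDs leave out that the classes were measured in the same libraries. Within each of the 4 libraries the 5 classes had this same order. The median nucleus held 12 to 16 member UMIs in the endothelial class and 11 to 15 in the excitatory class. Median UMIs per nucleus were 7190, 6135.5, 9498 and 7901 in excitatory and 4938, 4332, 5824.5 and 5800 in inhibitory nuclei. They were 1849 to 2094.5 in oligodendrocyte, 1121 to 1472 in microglia and 1219 to 1638 in endothelial nuclei. The part of this depth in the class differences was not tested. The 121 nuclei with both endothelial and mural markers had a higher share than endothelial nuclei in every library, with 1.20, 1.22, 1.46 and 1.18%. Their median UMIs per nucleus were 2495, 3830, 4097 and 3564.5, above those of endothelial nuclei. Whether some of them were doublets (joined nuclei) was not tested. Of the groups with few nuclei, the 24 mural nuclei had 0.651, 0.625, 1.38 and 0.464%, the 45 astrocyte nuclei 0.357, 0.629, 0.917 and 0.716% and the 102 oligodendrocyte precursor nuclei 0.203, 0.290, 0.160 and 0.150%.

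The mt- genes followed the same broad order, except that oligodendrocyte nuclei lay above inhibitory nuclei. They took 2.58, 3.07, 3.32 and 2.75% of UMIs in endothelial nuclei and 1.46, 1.87, 1.80 and 1.51% in microglia nuclei. In oligodendrocyte nuclei they took 0.504, 1.46, 0.725 and 0.383%, and in excitatory nuclei 0.135, 0.502, 0.215 and 0.135%. In inhibitory nuclei they took 0.237, 0.747, 0.404 and 0.216%. Microglia stood nearer to the endothelial nuclei for mt- transcripts than for the members. Over the 20 sums of 5 classes in 4 libraries, Spearman's rho was 0.893 between members and mt- genes, 0.904 between members and ribosomal protein genes, and 0.988 between mt- and ribosomal protein genes. The 20 points share libraries and totals, so these values are descriptive. The 5 other genes with at least 1000 UMIs whose log2(CPM + 1) followed the summed members most closely over the same sums were Snrpe, Slc25a4, Chchd2, Hint1 and Myl6, with Pearson's r from 0.981 to 0.983. Slc25a4 is the adenine nucleotide translocator of the inner mitochondrial membrane, and Snrpe is a spliceosomal protein.

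**Figure D1:**
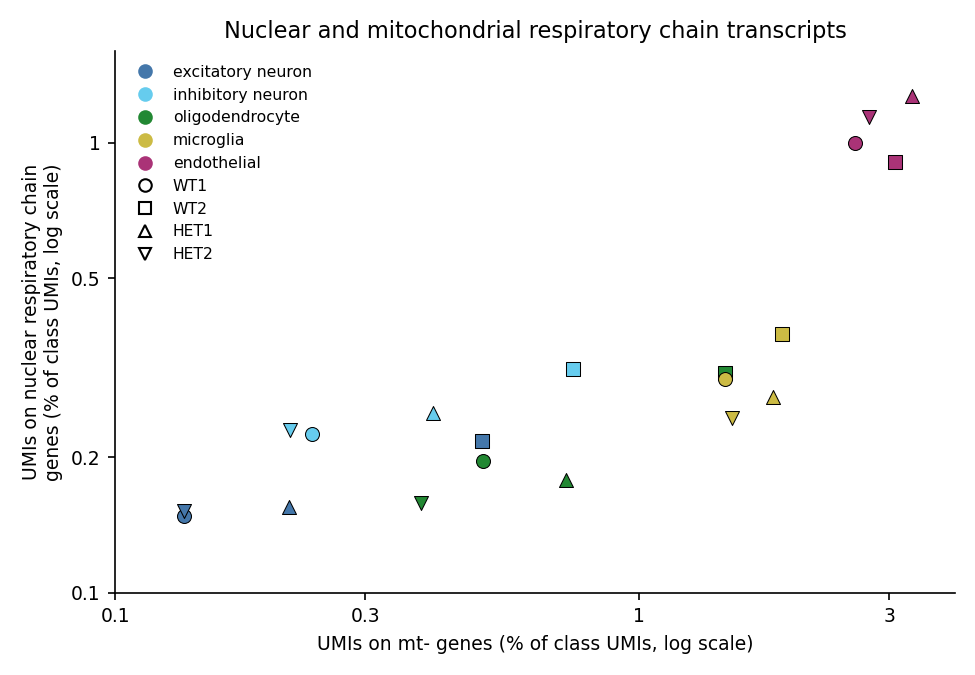
Share of UMIs on the nuclear-encoded members (y axis, % of class UMIs, log scale) against the share on mt- genes (x axis, %, log scale) for 5 marker-defined classes (colours) in 4 libraries (symbols). The 4 endothelial points lie between 0.908 and 1.27% for the members, above all others, and WT2 (squares) is the rightmost point of each class except the endothelial one. Nuclei past the mt- limit are left out. With no such limit WT2 had the highest mt- share in endothelial nuclei too (4.99%).

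Within the excitatory class, members and mt- transcripts also moved together between nuclei. When the excitatory nuclei of each library were split into 4 bins of equal size by their mt- share, the member share went from 0.130% in the lowest to 0.186% in the highest bin in WT1. It went from 0.174 to 0.311% in WT2, from 0.136 to 0.195% in HET1 and from 0.137 to 0.179% in HET2. Each library thus had a higher member share in each successive bin. The median UMIs per nucleus fell along the same bins, from 9928 to 4963 in WT1 and from 9479 to 4119 in WT2, and the ribosomal protein share went from 0.152 to 0.264% and from 0.227 to 0.538%. The part of depth and of the ribosomal protein genes in this relation was not tested. Over single excitatory nuclei, Spearman's rho between the 2 shares was 0.285, 0.488, 0.318 and 0.224. It was from 0.107 to 0.352 in inhibitory and from 0.183 to 0.393 in endothelial nuclei, but close to 0 in oligodendrocyte nuclei of HET2 (0.0105) and in microglia nuclei of WT1 (0.0025) and HET1 (-0.0045), in each of which the median nucleus held 3 member UMIs. In bins of the other classes the member share did not go up at every step in inhibitory nuclei of HET2 (0.223, 0.220, 0.226 and 0.262%) or in oligodendrocyte nuclei of WT1, HET1 and HET2.

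**Figure D2:**
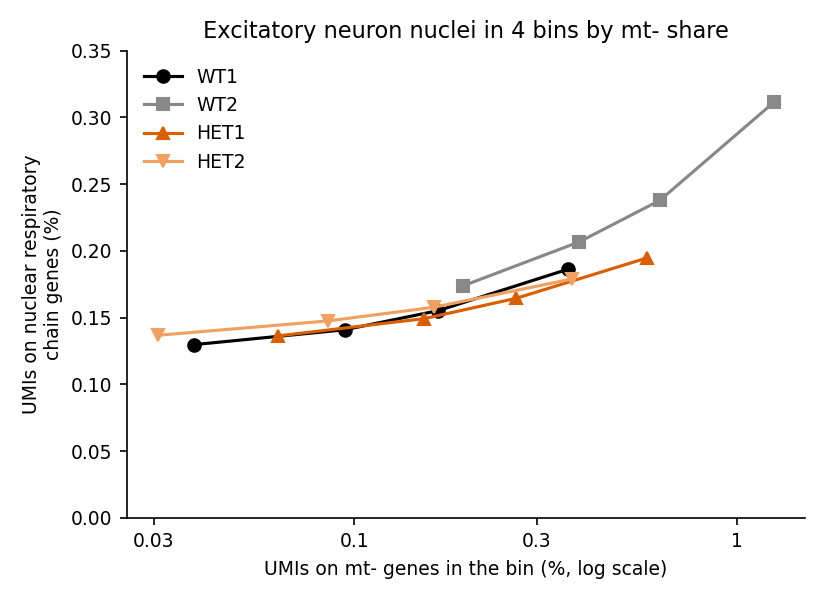
Excitatory nuclei of each library in 4 bins of equal size by mt- share: the y axis is the share of UMIs on the members (%), the x axis the share on mt- genes in that bin (%, log scale), and lines join the bins of a library. All 4 lines rise, and the WT2 line spans the widest range, from 0.174 to 0.311%.

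Among the members, UMIs were spread over all complexes: 35.5% fell on complex I, 26.7% on complex V, 19.7% on complex IV, 7.61% on complex III, 6.30% on complex II and 4.22% on the assembly or coupling factors. Raw counts favoured long genes. Ndufs4, a complex I accessory subunit spanning 100.5 kb, had 43775 UMIs, and the long Atp5o row, spanning 242.6 kb, had 35397. Per kb of gene span, Cox7c led with 12068 UMIs per kb, before Cox8a with 7097 and Atp5k with 3935, and Ndufs4 had 436 and ranked 66 of 88. At the other end, Cox8c had 1 UMI and Cox8b 15, both known as isoforms of other tissues. Of the 88 rows, 74 spanned under 20 kb and 14 spanned 20 kb or more, and 30 overlapped another annotated gene, where reads could be shared.

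Endothelial nuclei differed from excitatory nuclei in nearly every subunit. Of the 70 members that passed the detection filter (a UMI in at least 10% of the nuclei of some class), 63 were higher and 1 lower in endothelial nuclei at an adjusted p under 0.05 (edgeR quasi-likelihood test with library as a block, Benjamini-Hochberg over 8753 genes), against a background of 27.0% of genes higher and 37.9% lower. Without that filter, 73 of the 86 members with at least 10 counts were higher and 4 lower, against 15.9 and 23.9% of genes. The median log2 difference of the 70 was 2.78, against -0.33 over all genes. It was 2.79 for complex I, 2.78 for complex III, 3.02 for complex IV and 2.80 for complex V. It was 0.76 for the 3 tested subunits of complex II and -0.06 for the 4 assembly or coupling factors. Members also differed by gene length, with a median of 2.98 for those under 20 kb and 0.61 for the longer ones. The median span was 20.7 kb in complex II and 17.6 kb in the assembly or coupling factors. In complexes I, III, IV and V it was 8.38, 4.91, 3.34 and 7.47 kb. The part of length in the differences between complexes was not tested.

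Single subunits show this contrast. Cox4i1, the ubiquitous subunit 4 of complex IV, was at 409, 394, 492 and 485 CPM in endothelial nuclei and at 17.2, 53.2, 17.7 and 14.6 CPM in excitatory nuclei, a log2 difference of 3.99 ± 0.23 (SE, adjusted p = 1.94e-13, edgeR quasi-likelihood test). Every endothelial library lay above every excitatory one. Cox7c was at 285, 265, 302 and 258 CPM against 51.7, 71.0, 59.5 and 53.4 CPM (1.95 ± 0.15, adjusted p = 2.54e-11). Uqcrh, the hinge subunit of complex III, was at 148, 152, 242 and 203 CPM against 20.6, 34.3, 23.7 and 19.8 CPM (2.57 ± 0.21, adjusted p = 8.79e-11). Complex I subunits Ndufb7, Ndufb11 and Ndufa7 had log2 differences of 4.64 ± 0.28, 4.40 ± 0.26 and 4.20 ± 0.17. Members of long span were closer between the classes. Ndufs1, which carries iron-sulfur clusters of complex I, was at 69.6, 60.7, 43.1 and 47.0 CPM in endothelial nuclei and at 55.0, 65.6, 52.2 and 57.4 CPM in excitatory nuclei, and the difference did not pass the test (-0.29 ± 0.18, adjusted p = 0.272). Ndufs4 (-0.06 ± 0.15, adjusted p = 0.745) did not pass it either. Sdha, the flavoprotein of complex II, was higher by 0.62 ± 0.15 (adjusted p = 0.000793), Sdhb, its iron-sulfur subunit, by 1.37 ± 0.22 (adjusted p = 8.62e-06) and Uqcrc2, a core protein of complex III, by 1.14 ± 0.23 (adjusted p = 0.000107). Endothelial nuclei also held 4.14, 3.97, 1.15 and 2.48 UMIs of pan-neuronal markers per 1000, against 13.8 to 14.9 in excitatory nuclei, and their part in these levels was not tested.

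Oligodendrocyte and microglia nuclei differed from excitatory nuclei by less, and few members were lower. In oligodendrocyte nuclei 38 members were higher and 3 lower than in excitatory nuclei, against 33.8% of genes higher and 35.7% lower, with a median log2 difference of 0.49. In microglia nuclei 25 were higher and 3 lower, against 26.6 and 33.9%, with a median of 0.49. Of the 70 tested, the count higher was thus above the background in oligodendrocytes and closer to it in microglia, while in both the count lower was below the background. The 3 lower members were the same in both: Ndufs4, Ndufa10 and the long Atp5o row, all spanning 20 kb or more. Ndufs4 was lower in oligodendrocytes (-0.60 ± 0.10, adjusted p = 1.38e-05) and in microglia (-0.30 ± 0.12, adjusted p = 0.0392). Cox4i1 was higher by 1.33 ± 0.22 in oligodendrocytes (adjusted p = 8.11e-06) and by 1.74 ± 0.29 in microglia (adjusted p = 1.16e-05, edgeR quasi-likelihood test). Cox8a was higher by 1.05 ± 0.21 (adjusted p = 0.000132) and 1.28 ± 0.28 (adjusted p = 0.000386) in these classes. Without the detection filter 34 of 86 were higher and 8 lower in oligodendrocytes (background 17.5 and 24.9%), and 20 were higher and 4 lower in microglia (background 14.3 and 20.1%). WT2 counted for part of the oligodendrocyte calls: without it, 20 of 69 members were higher and 4 lower, against 30 and 34.0% of genes, so that the count higher was then near the background.

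Inhibitory nuclei had more of the members than excitatory nuclei, by a small amount. Of the 70 tested, 57 were higher and 0 lower, against 22.7% of genes higher and 24.9% lower. The median log2 difference was 0.48, with 0.51 for members under 20 kb and 0.29 for the longer ones. Inhibitory nuclei had fewer UMIs per nucleus in every library, and the part of this depth was not tested. At an unadjusted p under 0.01, 49 of the 70 passed, all higher, against 3680 of 8753 genes, of which 1723 were higher. These 49 are among the 57 adjusted calls, so their direction adds nothing to that count. All 11 tested members of complex IV and 15 of 16 of complex V were higher, and 0 of 4 assembly or coupling factors. Ndufc2 and Ndufa12, accessory subunits of complex I, were higher by 0.84 ± 0.10 and 0.79 ± 0.09. Atp5a1, the alpha subunit of ATP synthase, was at 106, 124, 120.1 and 107 CPM in inhibitory and at 64.2, 84.3, 68.7 and 63.9 CPM in excitatory nuclei (0.54 ± 0.08, adjusted p = 4.55e-06, edgeR quasi-likelihood test). Cox7b, at 67.6, 73.2, 72.1 and 71.3 CPM against 36.6, 49.1, 43.0 and 39.3 CPM, was higher by 0.60 ± 0.10 (adjusted p = 1.14e-05). The groups of 4 libraries did not overlap for either gene.

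Fast-spiking interneurons are known for high energy use, so the 841 inhibitory nuclei with Pvalb type markers were set against 4097 other inhibitory nuclei. The former needed at least 2 of the 4 markers and the latter held none. Median UMIs per nucleus were 8011, 6434, 8457.5 and 8231 against 4194, 3808, 4989 and 4764.5, and the part of this depth was not tested. The other nuclei were not limited to interneurons, and striatal projection neuron markers were at 0.961 and 1.16 UMIs per 1000 in the 2 groups. The summed share was slightly higher in Pvalb type nuclei in 4 of 4 libraries, with 0.228, 0.315, 0.264 and 0.243% against 0.224, 0.314, 0.245 and 0.223%, a difference of 0.0106 ± 0.00996 percentage points (SD of the 4 paired differences), which is smaller than the spread between libraries. Of 62 members tested, 13 were higher and 7 lower, against a background of 20.8% in each direction, and without the detection filter 14 of 84 were higher and 8 lower, against 12.4 and 15.3%. The 13 higher members included 7 of the 13 tested members spanning 20 kb or more, and the 7 lower members all spanned less. Cox7b was higher by 0.56 ± 0.08 (adjusted p = 4.83e-05, edgeR quasi-likelihood test), Atp5a1 by 0.40 ± 0.07 (adjusted p = 0.000427), Atp5c1 by 0.36 ± 0.08, Ndufa10 by 0.40 ± 0.09 and Cox5a by 0.36 ± 0.09. Ndufc2 (-0.51 ± 0.12, adjusted p = 0.00242) and Cox4i1 (-0.41 ± 0.10, adjusted p = 0.00313) were lower, as were Ndufa13, Ndufa4 and Cox8a, at -0.46 ± 0.13, -0.35 ± 0.10 and -0.35 ± 0.11. The subunits of complex IV thus went both ways, with 2 higher and 3 lower of 11. In a further setting, 1 more inhibitory marker was required for a nucleus, with the limits on Pvalb type markers unchanged. There 12 of 61 members were higher and 1 lower, against 17.6 and 17.8% of genes, so that most of the lower calls were lost.

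The rarer isoforms were unevenly spread over the classes. They had too few UMIs for the detection filter and were tested in a fit without it. Ndufa4l2, a paralog of Ndufa4, had 254 UMIs in all, and 167 (65.7%) of them lay in the 145 nuclei with mural markers, which were 0.278% of all nuclei. In nuclei with endothelial and mural markers it had 57, 18, 39 and 35 UMIs (362 CPM, in 63.6% of nuclei), against 17.0 CPM in endothelial nuclei and 0.0927 CPM in excitatory nuclei (in 0.0832% of nuclei). Its log2 difference between endothelial and excitatory nuclei was 6.62 ± 0.83 (adjusted p = 2.39e-13, edgeR quasi-likelihood test). Cox4i2, the isoform of subunit 4 known from lung and vascular smooth muscle, had 109 UMIs, of which 45 lay in nuclei with mural markers. It had 8, 5, 12 and 10 UMIs in the nuclei with endothelial and mural markers (85.1 CPM), 2 in endothelial nuclei (2.83 CPM) and 0.101 CPM in excitatory nuclei. Both genotypes held Ndufa4l2 and Cox4i2 in the nuclei with endothelial and mural markers, in every library. Whether some of these nuclei were doublets was not tested. The 24 mural nuclei had higher pooled levels, 433 CPM for Ndufa4l2 and 241 CPM for Cox4i2. These rest on few UMIs: 9, 2, 5 and 2 for Ndufa4l2 and 0, 0, 5 and 5 for Cox4i2.

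Cox6a2, known as the heart and skeletal muscle isoform of subunit 6A, was found in inhibitory nuclei. It had 34, 33, 34 and 14 UMIs there (2.95 CPM) and 19, 27, 21 and 13 in the excitatory nuclei (0.323 CPM), a log2 difference of 2.87 ± 0.28 (adjusted p = 2.18e-20, edgeR quasi-likelihood test without the detection filter). Within inhibitory nuclei, Pvalb type nuclei had 11, 13, 13 and 7 UMIs (5.86 CPM) and the others 14, 12, 11 and 5 (2.03 CPM), a difference of 1.63 ± 0.35 (adjusted p = 0.000141). Cox6a1, the ubiquitous isoform whose promoter is printed above, had 0.28 ± 0.12 there (adjusted p = 0.0748). Cox6a2 had 0 UMIs in endothelial nuclei, which allows up to 4.25 CPM for counting error only, and 3 in microglia nuclei (2.63 CPM). The Cox6a2 row overlaps another annotated gene.

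Cox7b2, known best from testis, had 2360 (75.7%) of its 3117 UMIs in neurons, close to the 76.1% of all UMIs that fell in these nuclei, against 71.1% for Cox7b. It was at 8.20 CPM in excitatory and 8.36 CPM in inhibitory nuclei, a difference that did not pass the test (-0.21 ± 0.13, adjusted p = 0.205). It was lower in oligodendrocyte nuclei (2.86 CPM, -1.71 ± 0.38, adjusted p = 3.63e-05) and in microglia nuclei (3.50 CPM, -1.84 ± 0.61, adjusted p = 0.0101, edgeR quasi-likelihood test). In the same fit Cox7b, its paralog with the CpG-poor promoter above, had -0.22 ± 0.15 in oligodendrocytes (adjusted p = 0.245) and -0.33 ± 0.21 in microglia (adjusted p = 0.253), and was higher in endothelial nuclei (0.70 ± 0.21, adjusted p = 0.00278). The Cox7b2 row spans 105.4 kb, and its oligodendrocyte UMIs were 0, 9, 2 and 1. Its microglia UMIs were 4, 0, 0 and 0. In WT1 its level was higher in microglia (15.6 CPM) than in excitatory nuclei (9.54 CPM). The lower call in microglia thus rests on the 0 UMIs of WT2, HET1 and HET2. The pooled microglia level is near the 2.63 CPM that 0 UMIs would allow. The fit also scales the sums: the plain CPM of Cox7b was higher in microglia (52.6) than in excitatory nuclei (41.3), against its fitted direction. Cox7a1 in endothelial nuclei (adjusted p = 1.58e-05) and Cox6b2 in oligodendrocyte nuclei (adjusted p = 9.73e-06) also passed against excitatory nuclei, on 6 and 11 UMIs.

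**Figure D3:**
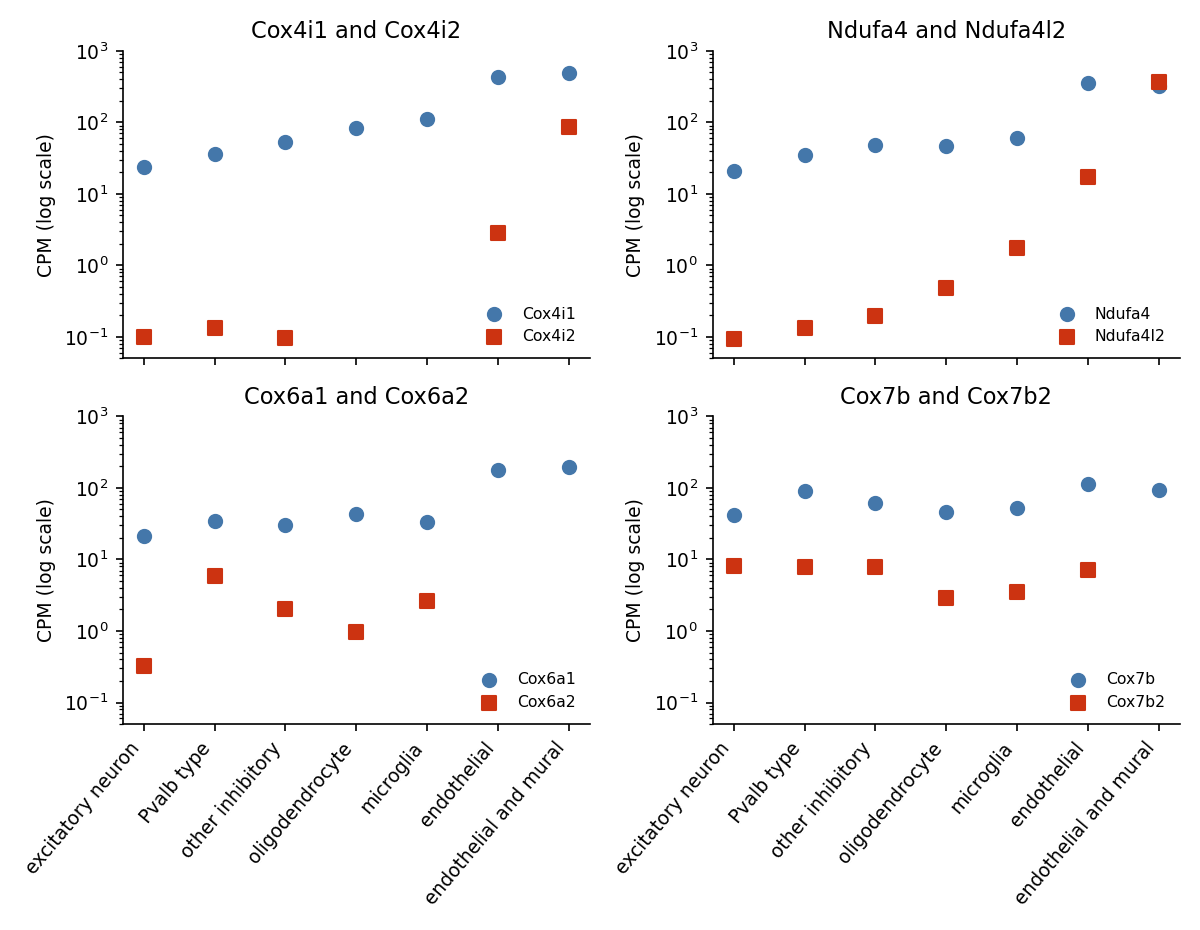
Pooled level over the 4 libraries (CPM, log scale) of 4 isoform pairs of complex IV in 7 marker-defined groups of nuclei. Blue circles are the ubiquitous isoform, red squares the restricted one, and a group with 0 UMIs has no point. Of the 7 groups shown, Ndufa4l2 and Cox4i2 were highest in nuclei with endothelial and mural markers, at 362 and 85.1 CPM. The mural nuclei are not shown.

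Atp5o, which encodes the oligomycin sensitivity protein of ATP synthase, was counted in 2 rows that went opposite ways. The long row (ENSMUSG00000116933, chr16:91684398-91926982, minus strand) overlaps 6 other genes and was at 57.6, 99.6, 70.9 and 99.3 CPM in excitatory nuclei and at 39.4, 45.5, 25.9 and 62.6 CPM in endothelial nuclei. It was lower in endothelial (-1.15 ± 0.20, adjusted p = 1.85e-05), microglia (-1.15 ± 0.15) and oligodendrocyte nuclei (-1.12 ± 0.11). The short row (ENSMUSG00000022956, chr16:91925214-91931687, minus strand) was at 9.81, 16.4, 11.2 and 9.14 CPM in excitatory and at 84.8, 98.6, 112 and 102 CPM in endothelial nuclei. It was higher by 2.76 ± 0.23 (adjusted p = 2.44e-10, edgeR quasi-likelihood test), as most other subunits were. The long row gave 35397 of the UMIs counted under this symbol and the short row 5391.

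The genotype comparison asks whether nuclei of Csf1r+/- brains differed in these genes before symptoms. In the excitatory nuclei 0 of 53 tested members passed an unadjusted p of 0.01, and 0 had an unadjusted p under 0.05 (edgeR quasi-likelihood test), against a background of 0.268 and 1.76% of genes called. By DESeq2, 0 passed 0.01 and 2 passed 0.05 (background 2.46% of genes at 0.05). The member share was 0.183 ± 0.0494% in WT and 0.154 ± 0.0024% in HET (SD, n = 2), and the groups overlapped. Over the 86 members with at least 10 counts, the median log2 fold change (HET against WT) was -0.26, with 78 below 0, against 49.0% of all genes. Both HET libraries lay below both WT libraries for 19 members (22.1%, against 20% of all genes) and above for 0 (against 6.83%), and the former is near the background. The shift of the median rested on WT2: 80 of the 86 members were highest in WT2 (93.0%, against 46.1% of all genes), the median was 0.01 without WT2, and it was -0.51 without WT1, when 14 members passed, all lower (background 2.17%). Of the members with at least 50 UMIs in these nuclei, Cox4i1 had the lowest value, -1.07 ± 0.49, at 17.2, 53.2, 17.7 and 14.6 CPM, and was at -0.10 without WT2. Uqcr11 followed with -0.92 ± 0.38, at 4.64, 12.4, 4.32 and 4.10 CPM. For both, WT2 alone was high and WT1 lay close to the HET libraries. The highest values by the same limit were those of the long Atp5o row (0.16 ± 0.27) and Ndufa6 (0.07 ± 0.16). Ndufs4, the member with the most UMIs, was at 99.95, 118, 112 and 107 CPM (0.04 ± 0.10).

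The excess in WT2 differed with gene length. In excitatory nuclei the log2 ratio of WT2 to WT1 had a median of 0.74 over members under 20 kb and 0.24 over the longer ones, against 0.35 and 0.06 over all genes. The genotype medians were -0.31 and -0.02. Among members, Spearman's rho between span and log2 fold change was 0.67 (86 members, descriptive), against 0.01 over all genes. The mt- genes had a median of -0.76, which was 0.28 without WT2 and -1.38 without WT1. The mt- genes with the most UMIs, mt-Co3, mt-Atp6 and mt-Co2, were at 282, 1026, 460 and 298 CPM, at 221, 955, 387 and 235 CPM and at 186, 659, 292 and 173 CPM, so that WT2 was highest and WT1 close to HET2. The ribosomal protein genes had a median of -0.69, which was -0.17 without WT2. Their part in the members' values was not tested.

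Inhibitory nuclei gave the same picture. Of 53 tested members 0 passed (background 0.0858%), 1 had an unadjusted p under 0.05 (background 1.49%), and DESeq2 called 0. The median over 84 members was -0.21, with 74 below 0 (against 50.5% of genes), 0.03 without WT2 and -0.43 without WT1. WT2 was highest for 72 of the 84 members (85.7%, against 34.9% of all genes). Both HET libraries lay below both WT libraries for 12 members (background 15.0%) and above for 4 (background 12.3%). Without WT1, 10 members passed, all lower (background 2.42%).

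In oligodendrocyte nuclei the member share was lower in HET, by less when WT2 was left out. The share was 0.252 ± 0.0788% in WT and 0.168 ± 0.0141% in HET (SD, n = 2), with both HET libraries below both WT libraries. Of 82 members with at least 10 counts, 35 (42.7%) had both HET libraries below both WT libraries, against 23.4% of all genes, and 1 had both above, against 12.3%. The median log2 fold change was -0.57, with 73 below 0 (against 52.1% of genes), and it was -0.21 without WT2 and -0.72 without WT1. With WT2 left out, 49 of 78 members were below 0 (against 49.3% of genes). WT2 was the highest library for 69 of the 82 members (84.1%, against 32.7% of all genes). Only 15 members passed the detection filter, and 2 of them fell at an unadjusted p under 0.01, against a background of 4.21% of genes lower. Without WT1, 11 of 17 passed, all lower (background 7.88%), and without WT2 0 of 7. Cox8a was at 56.3, 171, 48.6 and 39.7 CPM (-1.47 ± 0.42, adjusted p = 0.169, edgeR quasi-likelihood test), and -0.32 without WT2. Ndufb9, an accessory subunit of complex I, was at 36.3, 65.5, 25.3 and 20.7 CPM (-1.21 ± 0.37, adjusted p = 0.208), and -0.61 without WT2. In both genes each HET library lay below each WT library, and WT2 was the highest. Neither passed without WT2, HET1 or HET2, or in nuclei with at most 3 pan-neuronal UMIs per 1000. By complex the medians were -0.49 (I), 0.03 (II), -0.93 (III), -0.69 (IV) and -0.57 (V). The mt- genes had a median of -0.76, with 0 of 11 tested called, and the median was 0.10 without WT2. Of the ribosomal protein genes 11 of 54 tested were lower, with a median of -1.01, which was -0.24 without WT2. Pan-neuronal markers were at 2.36, 2.38, 1.20 and 1.40 UMIs per 1000 in these nuclei, lower in both HET libraries. In nuclei with at most 3 such UMIs per 1000, a limit added after the data were seen, the member median was -0.52, with 70 of 81 below 0, and 1 of 14 tested members passed (Cox4i1). The oligodendrocyte markers used to assign the nuclei (4.38, 4.72, 5.33 and 4.81 per 1000) and the 4 kept out (7.05, 7.95, 9.25 and 8.31 per 1000) were higher in both HET libraries, and their part was not tested.

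In microglia, the cells that depend on the CSF-1 receptor, the member share was lower in HET while the mt- share overlapped between genotypes. The member share was 0.337 ± 0.0545% in WT and 0.259 ± 0.0192% in HET (SD, n = 2), without overlap, whereas the mt- share was 1.66 ± 0.291% and 1.65 ± 0.211%, with overlap. Both HET libraries lay below both WT libraries for 32 of 77 members (41.6%, against 19.0% of all genes) and above for 4 (against 19.4%). The median log2 fold change was -0.43 over members, with 62 of 77 below 0 (against 50.6% of genes), -0.06 over the mt- genes and -0.21 over ribosomal protein genes. Without WT2 these medians were -0.31, 0.15 and -0.06. The member median kept its sign when any 1 library was left out (-0.62 to -0.31), but without WT2 only 40 of 69 members were below 0 (against 48.4% of genes). WT2 was the highest library for 43 of the 77 members (55.8%, against 29.0% of all genes). At the level of single genes, 0 of 12 tested members passed (background 5.52% of genes, edgeR quasi-likelihood test), 2 had an unadjusted p under 0.05 (background 13.1%), and DESeq2 called 0. The lowest p was that of Cox8a, chosen here after its values were seen, at 129, 160.5, 88.6 and 106 CPM (-0.68 ± 0.29, adjusted p = 0.311). Its HET libraries lay below its WT libraries. Cox4i1, at 82.1, 160.5, 104 and 79.4 CPM, overlapped between genotypes. Complex IV had the lowest median (-0.73, 0 of 11 members above 0) and complex II the highest (-0.19). The depth was 226817 to 342773 UMIs per library, and pan-neuronal markers were at 4.71, 5.68, 3.25 and 4.40 UMIs per 1000. In nuclei with at most 3 of these per 1000, the member median was -0.51. Microglia markers used to assign the nuclei were at 12.5, 8.48, 14.2 and 12.8 per 1000, higher in both HET libraries, while the 5 kept out overlapped (2.54, 1.39, 2.62 and 2.46 per 1000).

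Endothelial nuclei went the other way. The member share was 0.952 ± 0.0626% in WT and 1.20 ± 0.0917% in HET (SD, n = 2), without overlap, and the same held for each of complexes I to V: complex IV, for example, took 0.263, 0.253, 0.348 and 0.315%. Both HET libraries lay above both WT libraries for 32 of 80 members (40.0%, against 21.3% of all genes) and below for 4 (against 20.3%). The median log2 fold change was 0.28, with 60 of 80 above 0 (against 49.1% of genes), and 0.23 to 0.32 when any 1 library was left out. WT2 was highest for 8 of the 80 members (10.0%, against 25.2% of all genes), HET1 for 43 (53.75%, against 29.4%) and HET2 for 25 (31.25%, against 25.2%). Of 67 tested members, 1 had a higher value at an unadjusted p under 0.01, against 0.677% of genes higher. That was Sdhc, a membrane anchor of complex II, at 18.2, 15.2, 104 and 70.4 CPM, from 6, 2, 12 and 9 UMIs (2.21 ± 0.50, adjusted p = 0.0415, edgeR quasi-likelihood test). It met the detection filter through HET alone, the genotype in which it is high: 21 of 134 HET nuclei (15.7%) and 8 of 292 WT nuclei (2.74%) held a UMI, and 29 of 426 together (6.81%). With detection over both genotypes together it was not tested, and 0 of 59 members passed. It did not pass either by DESeq2, without WT1, without HET1 or with no limit on mt- UMIs, where its log2 fold change was 2.27, 2.40, 1.86 and 1.19. At an adjusted p under 0.05 it was 1 of 4 higher genes (0.104% of those tested), while 87 were lower (2.37% called in all). This adjusted call was also lost without the detection filter, with at least 1000 UMIs per nucleus, with at most 3 pan-neuronal UMIs per 1000 and without WT2. Cox8a was at 288, 296, 526 and 352 CPM (0.51 ± 0.29, adjusted p = 0.450) and Uqcrh at 148, 152, 242 and 203 CPM (0.50 ± 0.31, adjusted p = 0.527), without overlap and not past the threshold.

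Several other measures moved with the endothelial libraries. The ribosomal protein genes were higher in HET (2.68, 2.63, 3.44 and 3.32% of UMIs), as were the endothelial markers used to assign the nuclei (15.4, 13.8, 20.3 and 18.1 UMIs per 1000) and the 4 kept out (1.86, 1.70, 2.51 and 2.06 per 1000). The 3 mural markers kept out were also higher (1.02, 0.956, 1.39 and 1.49 per 1000), while the mural markers used to assign nuclei overlapped (1.77, 1.43, 2.24 and 1.75 per 1000). Pan-neuronal markers were lower (4.14, 3.97, 1.15 and 2.48 per 1000), and in nuclei with at most 3 of them per 1000 the member median was 0.24, with 61 of 78 above 0. The mt- share overlapped, and its gene median was 0.05 (0.16 without WT2). Of the 12 mt- genes tested, 1 passed the unadjusted limit of 0.01, against 206 of 3841 genes lower. It was mt-Atp8, lower at 93.8, 121, 51.8 and 31.3 CPM (-1.39 ± 0.46, unadjusted p = 0.00996, adjusted p = 0.165, edgeR quasi-likelihood test). The endothelial class held 223, 69, 64 and 70 nuclei, and with no limit on mt- UMIs 247, 157, 100 and 96, when the member share was 1.01, 1.12, 1.26 and 1.15%. In nuclei with endothelial and mural markers the member share overlapped between genotypes, with HET2 below both WT libraries. The part of the markers and of the ribosomal protein genes was not tested.

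The difference between classes was tested in 1 model with a term for it. At an adjusted p under 0.05, 0 of 70 members differed between endothelial and excitatory nuclei in their genotype effect (edgeR quasi-likelihood test). At an unadjusted p under 0.05, 22 did, all in the direction of a higher HET value in endothelial nuclei, against 6.97% of genes in that direction, and at 0.01, 10 did, against 2.7%. The 10 were led by Sdhc (2.51 ± 0.64, adjusted p = 0.0550), Cox8a (1.23 ± 0.33, adjusted p = 0.0718) and Cox4i1 (1.12 ± 0.33, adjusted p = 0.0990). Between endothelial and oligodendrocyte nuclei, 11 members had an unadjusted p under 0.01, all higher in endothelial nuclei, against 1.85% of genes, with Cox8a first (1.79 ± 0.41, adjusted p = 0.119). For inhibitory, oligodendrocyte and microglia nuclei against excitatory nuclei, 0, 9 and 2 of 70 members had an unadjusted p under 0.05, against 3.16, 11.4 and 10.6% of genes, and 0 in each passed 0.01, against 1.1, 4.33 and 3.0%. These counts are near the background or below it. These contrasts share libraries and the excitatory nuclei, and WT2 enters each. The model was not fitted without WT2, and the excitatory member median was -0.26 with it and 0.01 without it.

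**Figure D4:**
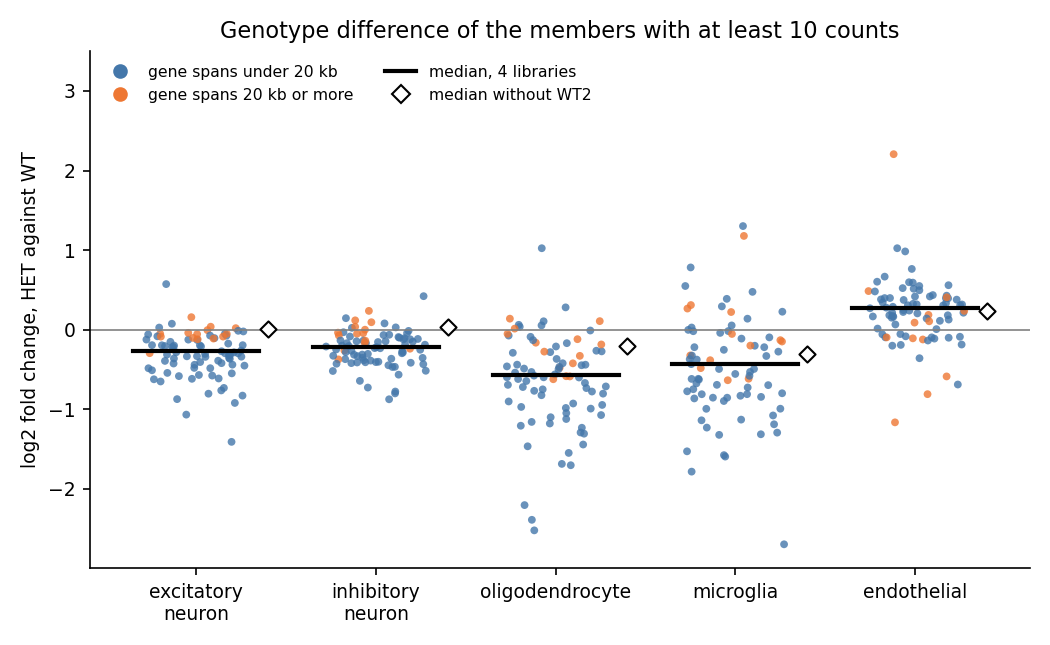
Log2 fold change (HET against WT) of each member with at least 10 counts in 5 classes. Blue points span under 20 kb and orange points 20 kb or more, black bars are medians of all 4 libraries and white diamonds are medians without WT2: the excitatory and inhibitory diamonds lie at 0.01 and 0.03, the oligodendrocyte and microglia medians below 0 and the endothelial one above 0.

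Apart from the mt- genes, no other gene of the pathway that was tested passed in any class. Assembly factors of complex I (14 genes), III (6), IV (18) and ATP synthase (4), the tricarboxylic acid cycle enzymes (13), cytochrome c with cytochrome c1 (2) and regulators of mitochondrial biogenesis such as Ppargc1a, Nrf1 and Gabpa (11) had 0 genes past an unadjusted p of 0.01 in each of the 5 classes by edgeR's quasi-likelihood test. Few of them passed the detection filter in glial and endothelial nuclei: of the 11 regulators, 8 were tested in excitatory nuclei and 2 in microglia. Cytochrome c with cytochrome c1 had 0 genes tested in excitatory, oligodendrocyte and microglia nuclei. ATP synthase assembly had 0 tested in oligodendrocyte, microglia and endothelial nuclei. In these cases no call was possible. Assembly of complexes I, III and IV had 2, 1 and 1 genes tested in oligodendrocyte nuclei and 1 each in microglia. In excitatory nuclei the medians of these lists lay between -0.19 and 0.04, while the members had -0.26. In oligodendrocyte nuclei they lay between -0.72 (assembly factors of complex III, 0 of 6 above 0) and 0.10 (assembly factors of ATP synthase). In microglia they lay between -0.79 (assembly factors of ATP synthase, 0 of 4 above 0) and 0.33 (regulators, 9 of 10 above 0), and in endothelial nuclei between -0.01 (assembly factors of ATP synthase) and 0.30 (assembly factors of complex III). The tricarboxylic acid cycle had 0.03 in microglia and 0.23 in endothelial nuclei.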

How the data were processed

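Nuclear RNA of 4 brains was sequenced with a droplet kit that counts molecules at the 3′ end. The authors deposited UMI counts, not normalized, for each gene in each nucleus, from Cell Ranger 5.0.0 on mm10 per the labels. Whether intronic reads were counted is not given in the sources used here. Other mice of the study are not analysed here. Labels call the libraries separate samples, and 2 mice of each genotype are analysed here. The paper reports more mice of each genotype than these. p-values rest on 2 libraries a genotype.

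Nuclei were kept by the limits in the report. A non-neuronal class needed 3 markers of its list and 2 marker UMIs per 1000, an excitatory nucleus 3 pan-neuronal and 3 excitatory markers with at most 1 inhibitory, and an inhibitory one 3 pan-neuronal and 2 inhibitory with at most 2 excitatory. Nuclei meeting 2 classes (313 to 778 a library, possible doublets) stayed unassigned, except those with endothelial and mural markers. No doublet caller was run. The marker check of the inhibitory class is not reported here. Counts were summed per class and library.

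Genotypes were compared with edgeR 4.0.16 (quasi-likelihood, TMM, genes with 10 counts and a UMI in 10% of nuclei of either genotype) at an unadjusted p under 0.01, the study's limit, with Benjamini-Hochberg adjusted values beside it. The study applied this limit to edgeR's likelihood-ratio test within its own clusters and on more mice. That test is among the alternatives here. Values without a library and medians over all members with 10 counts came from a fit without the 10% filter, except those of genes past the threshold. Classes were compared with library as a block. The model for differences between classes was added after the data were seen. Standard errors were taken from the log2 fold change and the F statistic. Scripts were tested on simulated data. Alternatives were the likelihood-ratio test, DESeq2 1.42.0, other scalings, filters and marker limits, a replicate block and leaving out each library. Positions are from GENCODE M21, whose rows matched all 88 members.

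Named with values were members past the genotype threshold, the 2 members per complex with the most UMIs, isoform pairs, the extremes of excitatory nuclei (at least 50 UMIs), 3 mt- genes and 5 genes of like pattern. Other members named in class contrasts were chosen after their values were seen. Members and lists were chosen with earlier results of these data known.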

Additional observations from a re-analysis of the deposited data

Results flagged for a closer look

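The genotype difference in the member share went opposite ways in endothelial nuclei and in oligodendrocyte and microglia nuclei. HET minus WT was 0.250 percentage points in endothelial nuclei and -0.0838 in oligodendrocyte nuclei, a gap of 0.334 percentage points, with both HET libraries above both WT libraries in the former and below in the latter. Against microglia nuclei, where both HET libraries were also below, the gap was 0.329 percentage points. The gap in shares was not tested, since 2 libraries against 2 cannot reach 0.05 in an exact permutation test. With no limit on mt- UMIs the endothelial difference was 0.141 percentage points. Of the groups with few nuclei, the 45 astrocyte nuclei (3 to 15 a library) went the same way as endothelial nuclei (0.323 percentage points, both HET libraries above), the 102 oligodendrocyte precursor nuclei went the way of the oligodendrocyte nuclei (-0.0917, both below), and the 121 nuclei with endothelial and mural markers overlapped between genotypes.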

How the results depend on the processing

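Of 234 recomputed counts, medians and shares, 195 kept their direction and side of the threshold, 17 counts were lower and 14 higher by over 1.5 times, 4 values moved, and 4 reversed, each without WT2. Members past the genotype threshold in excitatory nuclei ranged from 0 to 14 when 1 library was left out, with a median of -0.51 to 0.01 and a share difference of -0.0640 to 0.00594 percentage points, which were 0.0114 and 0.00594 without WT2. In inhibitory nuclei the median ranged from -0.43 to 0.03 and the share difference from -0.0742 to 0.0150 percentage points. Without WT2 they were 0.0327 and 0.0150. In oligodendrocyte nuclei 2 of 15 tested members passed, both lower, against 148 of 3517 genes lower. By the likelihood-ratio test 4 of 15 were lower (202 of 3517 genes). With no limit on mt- UMIs 4 of 15 were (158 of 3525 genes), and without the detection filter 13 of 82 (312 of 12534 genes). By DESeq2, library totals and totals without mt- and ribosomal protein genes, 1 of 15 was lower in each (90, 137 and 140 of 3517 genes). In nuclei with at most 3 pan-neuronal UMIs per 1000 (chosen after seeing the data) 1 of 14 was (127 of 3530 genes). The median without 1 library was -0.80 to -0.21. In microglia nuclei 1 of 77 members passed without the detection filter (lower, against 216 of 10346 genes lower). With no limit on mt- UMIs 1 of 10 did (lower, against 187 of 3229 genes lower). The microglia median without 1 library was -0.62 to -0.31. In endothelial nuclei 2 of 67 members were higher by the likelihood-ratio test and by both other totals (43, 46 and 48 of 3841 genes higher). By DESeq2 0 of 67 passed (0 of 3841 genes higher), and with detection over both genotypes 0 of 59 (13 of 3266 genes higher). With no limit on mt- UMIs 0 of 67 passed (19 of 3609 genes higher), with a median of 0.17 and a share difference of 0.141. Calls against excitatory nuclei were 24 to 42 in oligodendrocyte and 16 to 28 in microglia nuclei without 1 library. Pvalb type calls were 13 with 1 more inhibitory marker required (12 higher, 1 lower) and 11 to 16 without 1 library. The causes were not tested.

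With the replicate number as a block, 0 members passed in oligodendrocyte nuclei and 1 in endothelial nuclei, and no other call changed. Deviations of same-numbered libraries correlated at 0.0714, 0.0398, -0.0289, -0.0424 and 0.189 over the 5 classes, so the numbers were not taken to pair the libraries.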
